A study of Mus musculus with 77 samples.

Results

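The miR-34 and miR-449 family is a group of related microRNAs (miRNAs). The members measured here come from 5 hairpins at 3 places in the mouse genome. Members were taken as every miRNA whose name starts with mmu-miR-34a, mmu-miR-34b, mmu-miR-34c or mmu-miR-449, whichever arm of the hairpin it comes from. The rule found 7 of 788 miRNAs bound to the protein AGO2 in a stress-related region of the forebrain, the bed nucleus of stria terminalis (BNST), and 3 of 299 miRNAs in blood cells. In the BNST these were mmu-miR-34a-5p, mmu-miR-34b-5p, mmu-miR-34b-3p, mmu-miR-34c-5p, mmu-miR-34c-3p, mmu-miR-449a-5p and mmu-miR-449c-5p, whose prefix for mouse is left out from here on. In blood they were miR-34a-5p, miR-34c-5p and miR-449a-5p.

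A miRNA is loaded into AGO2, the catalytic part of the RNA-induced silencing complex, and guides it to mRNAs that pair with its seed, the bases at positions 2 to 8. The miR-34 and miR-449 families are related and are known for a pair of roles. miR-34a is induced by the tumor suppressor p53 and represses cell cycle and survival genes. miR-34b, miR-34c and miR-449 are abundant in tissues with motile cilia, such as airway, oviduct, testis, ependyma and choroid plexus, where they are needed for multiciliated cells to form. In brain, miR-34 has been linked to stress and anxiety, in part through the corticotropin-releasing hormone receptor Crhr1.

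Mice of 2 inbred strains went through chronic social defeat stress (CSDS). In this mouse model of psychosocial stress an aggressor defeats the mouse day after day. The strains are labeled C57BL/6Crl (B6) and DBA/2Crl (D2), and the study's methods write them as C57BL/6NCrl and DBA/2NCrl. Defeated mice were called susceptible or resilient by their social avoidance, and undefeated mice of the same strain were the controls. All mice were males of 8 weeks at dissection, 6 to 8 days after CSDS. The B6 BNST gave AGO2-bound miRNAs from 5 control, 5 resilient and 3 susceptible libraries, each a pool of 3 BNSTs, and AGO2-bound mRNAs from 5, 5 and 4 such pools. Blood cell miRNAs came from 5 mice in each of 5 groups, which were B6 control, B6 resilient, B6 susceptible, D2 control and D2 susceptible. AGO2-bound RNA of D2 mice was not analysed here, and a pool is limited as a model because its mice cannot be told apart. Libraries of the same group were treated as replicates. The p-values of group comparisons set the difference between groups against the spread between libraries, which limma estimates over all groups of a data set.

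The libraries held 3173294 to 9404828 reads for AGO2 miRNAs, 3701281 to 10659882 for AGO2 mRNAs and 6916739 to 10113657 for blood miRNAs. Levels are the deposited log2 CPM (counts scaled to a common library size), so that a step of 1 is a factor of 2. The tissue labels were checked with miRNAs known from each tissue. miR-219a-2-3p, a miRNA of oligodendrocytes, had a median log2 CPM of 10.1 in the BNST pools, while the brain miRNA miR-9-5p was low there with a median of 0.508. The red cell miRNA miR-451a had a median of 18.3 in blood and 7.09 in the BNST pools. miR-150-5p, known from lymphocytes, went the other way, with a median of 11.9 in the BNST pools and 8.70 in blood. Of the miRNAs looked up for this check, the brain miRNAs miR-124-3p and miR-128-3p were among neither the 788 AGO2-bound nor the 299 blood miRNAs. miR-144-3p, miR-223-3p and miR-142a-3p were not among those of blood. Of the brain miRNAs looked up, only miR-219a-2-3p was therefore found at a high level in the BNST pools. In blood, 2 D2 mice are controls by one source and susceptible by the other when the labels are set beside the column headings, and results that change with the column names are given both ways.

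The mature sequences are shown because they show what the members share and where they differ. RefSeq on GRCm38.p6 held 6 of the 7 members. They are written 5′ to 3′ with the seed in capitals.
miR-34a-5p: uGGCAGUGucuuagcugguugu
miR-34b-5p: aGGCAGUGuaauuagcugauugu
miR-449a-5p: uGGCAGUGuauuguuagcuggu
miR-449c-5p: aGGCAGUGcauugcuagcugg
miR-34b-3p: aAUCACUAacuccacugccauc
miR-34c-3p: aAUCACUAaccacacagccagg
The 4 members from the 5′ arm in this list had 1 seed, GGCAGUG, and both 3′ arm members had another, AUCACUA. Among the 648 AGO2 miRNAs with a RefSeq sequence, no miRNA outside the family had the seed GGCAGUG. Compared from the 5′ end without gaps, miR-449a-5p and miR-449c-5p were identical at 18 of 21 positions, miR-34a-5p and miR-449a-5p at 15 of 22, and miR-34a-5p and miR-34b-5p at 11 of 22. The listed members can therefore be told apart by their 3′ parts. miR-34c-5p had no sequence in this source and was not compared, so its likeness to miR-34b-5p is not shown here.

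The hairpin Mir34a lies at chr4:150068454-150068555 on the plus strand, in an exon of Gm37795, a gene model that GENCODE M21 lists as to be experimentally tested. Mir34b at chr9:51103562-51103645 and Mir34c at chr9:51103034-51103110 lie on the minus strand with 451 bases between them, in an intron of Btg4, which is on the opposite strand. Mir449c at chr13:113035983-113036091 and Mir449a at chr13:113037534-113037624 lie 1442 bases apart on the plus strand, in an intron of Cdc20b, a gene of multiciliated cells. Neither Btg4 nor Cdc20b was among the 16587 AGO2-bound mRNAs that were analysed.

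In the BNST the family took a small share of AGO2-bound miRNA reads, and 1 member supplied most of it. The family held between 0.121% and 0.472% of the reads in control pools (median 0.327%), between 0.126% and 0.538% in resilient pools (median 0.196%) and between 0.103% and 0.266% in susceptible pools (median 0.110%). miR-34c-5p made up between 68.6% and 87.5% of the family's reads in every pool. It ranked 42nd to 116th of the 788 miRNAs in single pools, with a mean level of 10.8 log2 CPM.

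The other members followed in the order miR-34a-5p (mean level 7.56 log2 CPM), miR-34b-3p (6.71), miR-34b-5p (6.12), miR-449a-5p (4.36), miR-449c-5p (3.16) and miR-34c-3p (0.428). The neighbours miR-34a-5p and miR-34b-3p did not differ beyond their spread, as in control pools miR-34b-3p was the higher of the pair at 7.47 ± 0.667 (SD, n = 5), against 7.28 ± 0.437 (SD, n = 5) for miR-34a-5p. miR-34c-3p had 1 to 21 reads in a pool and 102 reads in all 13 pools, so that its differences are not read here. Its partner arm miR-34c-5p had 138721 reads in the same pools.

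The question of the design was whether AGO2-bound miRNAs differ between control, resilient and susceptible mice. A miRNA was called when the limma fit gave a fold change of 1.2 or more together with an unadjusted p below 0.05. In susceptible pools against controls, miR-34b-3p and miR-34c-5p were called, both lower, which is 2 of 7 members against 4.7% of all 788 miRNAs. In resilient pools against controls miR-34b-3p was called lower, 1 of 7 members against 9.52% of all miRNAs. No member was called in susceptible against resilient pools, where 3.93% of all miRNAs were called. No member passed an adjusted p of 0.05 in any of these comparisons, and both comparisons with controls share the same 5 control pools.

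The level of miR-34c-5p, the main 5′ arm product of the chromosome 9 cluster, was 12.07, 11.45, 11.15, 11.83 and 9.91 log2 CPM in control pools 1 to 5. It was 12.16, 10.56, 10.85, 10.06 and 9.83 in resilient pools 1 to 5, and 9.48, 9.51 and 11.02 in susceptible pools 1, 2 and 4. Susceptible pools 1 and 2 lay below every other pool, while susceptible pool 4 lay among the controls, and control pool 5 was low within its group, so the groups overlapped. The mean was 1.28 lower in susceptible than in control pools (SE 0.484, p = 0.0167, adjusted p = 0.884 with limma), and the exact two-sided permutation test over the pools gave p = 0.0714, where 0.0357 is the smallest that 3 pools against 5 allow. The call was lost without susceptible pool 1 (difference -1.01) or susceptible pool 2 (-1.03). In resilient pools the mean was 0.59 lower than in controls (SE 0.419, p = 0.176, adjusted p = 0.639 with limma, exact permutation p = 0.317). This did not pass as a call, but did without control pool 5 (-0.93) or resilient pool 1 (-0.96).

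miR-34b-3p comes from the other hairpin of the same cluster and carries the other seed. Its level was 8.24, 7.62, 7.12, 7.86 and 6.53 log2 CPM in control pools 1 to 5. It was 7.78, 6.54, 6.27, 6.11 and 5.47 in resilient pools 1 to 5 and 5.32, 5.49 and 6.89 in susceptible pools 1, 2 and 4. Resilient pools 2 to 5 and all susceptible pools lay below control pools 1 to 4, while control pool 5 stood beside resilient pool 2, and resilient pool 1 lay within the control range. The difference from controls was -1.04 in resilient pools (SE 0.382, p = 0.0140, adjusted p = 0.303 with limma, exact permutation p = 0.0714) and -1.58 in susceptible pools (SE 0.441, p = 0.00216, adjusted p = 0.602 with limma, exact permutation p = 0.0714). The first of these calls was lost without control pool 1 (difference -0.85). In susceptible against resilient pools, miR-34b-3p (-1.03) and miR-34c-5p (-1.20) were called without susceptible pool 4.

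miR-34b-5p, from the same hairpin, had 7.30, 6.59, 6.22, 7.24 and 5.12 log2 CPM in control pools 1 to 5. It had 7.28, 6.04, 6.47, 5.64 and 4.86 in resilient pools and 5.47, 4.56 and 6.81 in susceptible pools 1, 2 and 4. The pools stood in much the same order as for miR-34c-5p, and the groups overlapped. The differences from controls, -0.44 in resilient pools (SE 0.459, p = 0.355, adjusted p = 0.760 with limma, exact permutation p = 0.444) and -0.88 in susceptible pools (SE 0.530, p = 0.113, adjusted p = 0.937 with limma, exact permutation p = 0.286), were not called. The second was called without control pool 5 (-1.23) and without susceptible pool 4 (-1.48).

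miR-34a-5p, the member of chromosome 4, had 6.90, 7.40, 7.81, 7.54 and 6.77 log2 CPM in control pools 1 to 5. It had 8.28, 8.07, 6.53, 7.57 and 8.05 in resilient pools and 7.30, 7.84 and 8.22 in susceptible pools 1, 2 and 4. Of the defeated pools, 5 lay above every control and 3 did not. The difference was 0.42 in resilient pools (SE 0.280, p = 0.155, adjusted p = 0.606 with limma, exact permutation p = 0.270) and 0.50 in susceptible pools (SE 0.323, p = 0.139, adjusted p = 0.937 with limma, exact permutation p = 0.214). Neither was called, and without resilient pool 3, the lowest of all pools, both were (0.71 and 0.50).

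miR-449a-5p, with 45 to 329 reads a pool, ran from 3.77 to 4.46 log2 CPM in control pools, from 3.41 to 5.29 in resilient pools and from 3.79 to 4.66 in susceptible pools. In resilient pools 4 of 5 were above every control, and resilient pool 2 was below all of them. The difference of 0.56 (SE 0.307, p = 0.0846, adjusted p = 0.496 with limma, exact permutation p = 0.159) was not called, and was called without resilient pool 2 (0.87). miR-449c-5p, with 19 to 120 reads a pool, differed from controls by -0.24 in resilient pools (95% confidence interval from -1.12 to 0.64) and by -0.12 in susceptible pools (from -1.14 to 0.89). These intervals include changes of a factor of 2 in the lower direction.

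**Figure D1:**
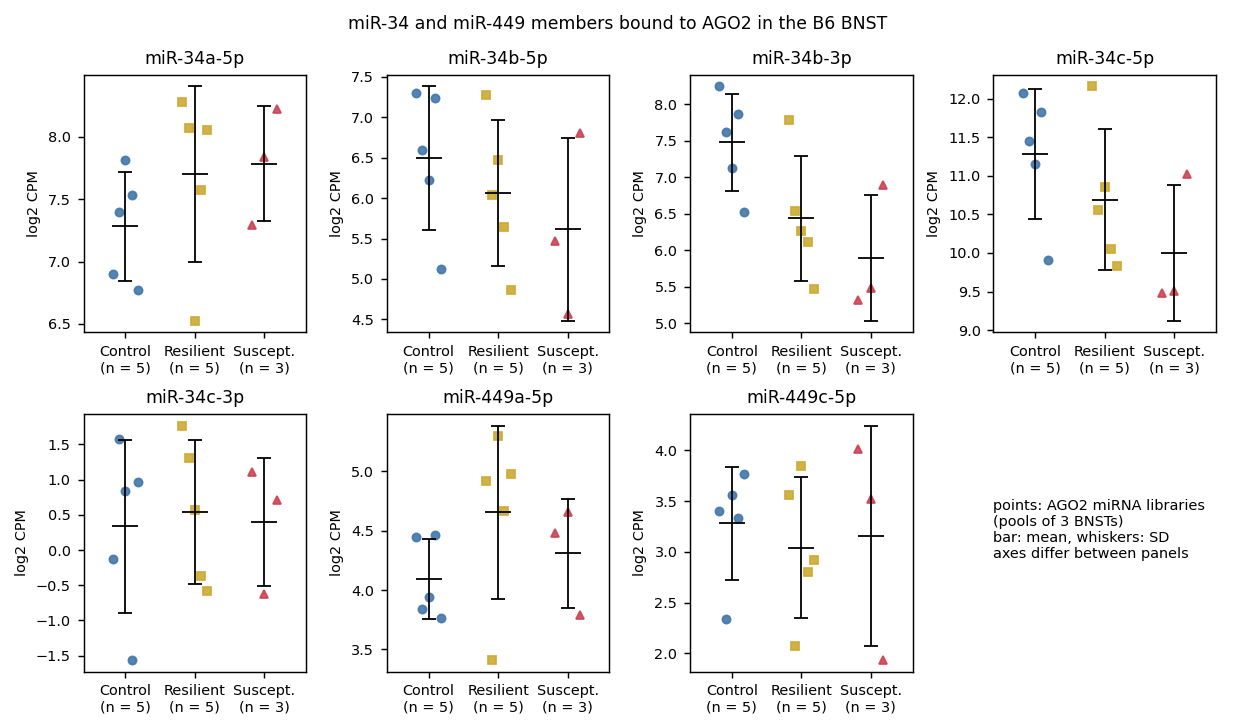
Level of each member in the 13 AGO2 miRNA pools, in log2 CPM on the y axis with a separate scale for each panel, by group on the x axis; points are pools, bars are means and whiskers SDs. For miR-34c-5p the 3 susceptible pools sit at 9.48, 9.51 and 11.02, against 9.91 to 12.07 in the 5 controls, while for miR-34a-5p the susceptible pools sit at 7.30 to 8.22 against 6.77 to 7.81.

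**Figure D2:**
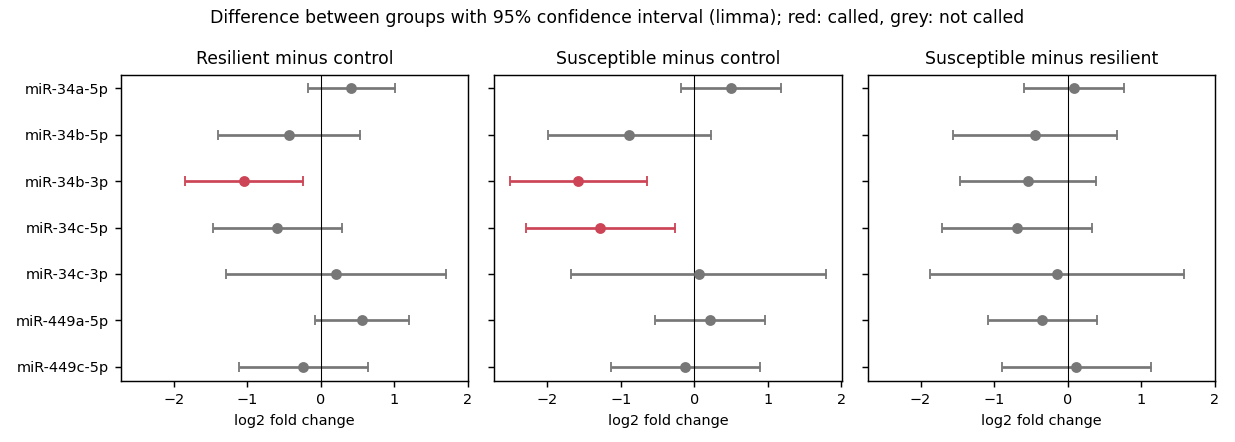
Difference between groups for each member on the log2 scale (x axis) with its 95% confidence interval from limma, 1 panel for each comparison; red marks members that were called. The called members are miR-34b-3p (-1.04) in resilient against control pools and miR-34b-3p (-1.58) and miR-34c-5p (-1.28) in susceptible against control pools.

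The difference between the members of chromosomes 9 and 4 was taken within each pool, where it does not depend on the scaling of the library. The mean of the 4 arms of miR-34b and miR-34c minus miR-34a-5p was -0.89 ± 0.578 (SD, n = 5) in controls, -1.77 ± 1.04 (SD, n = 5) in resilient pools and -2.31 ± 0.693 (SD, n = 3) in susceptible pools. Every susceptible pool, from -3.11 to -1.86, was below every control, from -1.48 to -0.03, and the difference of -1.42 had an exact permutation p of 0.0357, the smallest possible, and 0.107 after adjustment over the 3 comparisons. The resilient pools overlapped both groups, with a difference from controls of -0.88 (exact permutation p = 0.143). This mean gives miR-34c-3p, with its few reads, the same weight as the other arms. For miR-34c-5p alone minus miR-34a-5p, the value was 4.00 ± 0.811 (SD, n = 5) in controls, 2.99 ± 1.07 (SD, n = 5) in resilient pools and 2.22 ± 0.567 (SD, n = 3) in susceptible pools. Here too no susceptible pool, from 1.67 to 2.80, reached the controls, from 3.14 to 5.17 (difference -1.78, exact permutation p = 0.0357, adjusted 0.107), while the resilient pools overlapped with the controls (difference -1.01, exact permutation p = 0.127). A difference within a pool does not show which of its terms changed.

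The arms of miR-34b also differed. The level of miR-34b-5p minus that of miR-34b-3p was -0.98 ± 0.282 (SD, n = 5) in controls and -0.38 ± 0.329 (SD, n = 5) in resilient pools. The controls, from -1.40 to -0.62, did not overlap with the resilient pools, from -0.60 to 0.21, and the difference of 0.60 had an exact permutation p of 0.00794, the smallest possible, and 0.0476 after adjustment over the 6 arm comparisons. In susceptible pools the value was -0.29 ± 0.564 (SD, n = 3), a difference of 0.69 from controls that overlapped with them (exact permutation p = 0.107). Between the 5′ arms of the cluster, miR-34c-5p minus miR-34b-5p stayed between 4.01 and 4.96 in all 13 pools, and no comparison of groups had an exact permutation p under 0.214. Over these pools miR-34b-5p had 5652 reads and miR-34c-5p 138721. How reads that fit both were assigned is not given in the sources used here, and whether miR-34b-5p counts hold reads of miR-34c-5p was not tested. The arm difference of miR-34b and the likeness of these 5′ arms over the pools carry this limit.

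The pools were also compared by their choroid plexus mRNA. Ttr encodes transthyretin, the thyroid hormone carrier made by choroid plexus epithelium, the tissue that secretes cerebrospinal fluid into the ventricles beside which the BNST lies. In the matched AGO2-bound mRNA, Ttr had 6.81, 4.40, 6.46, 6.82 and 0.61 log2 CPM in control pools 1 to 5. It had 6.08, 3.50, 6.37, 1.79 and 2.00 in resilient pools 1 to 5 and -0.19, 0.24, -0.31 and 5.04 in susceptible pools 1 to 4. The pools held 4 to 889 Ttr reads, and pools both high and low in Ttr were found in every group. Ttr was called lower in susceptible pools than in controls (difference -3.82, SE 1.32, p = 0.00986, adjusted p = 0.105 with limma, exact permutation p = 0.0635).

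Over the 13 pools with both kinds of library, 3 members followed Ttr and the others did not. miR-34c-5p had a Pearson r of 0.915 with Ttr (permutation p = 8e-05, adjusted p = 0.00035 over the 7 members) and a Spearman rho of 0.868 (permutation p = 0.00026, adjusted p = 0.00182). miR-34b-5p had r = 0.886 (permutation p = 0.0001, adjusted p = 0.00035) and rho = 0.830 (permutation p = 0.0008, adjusted p = 0.00261), and miR-34b-3p had r = 0.809 (permutation p = 0.00116, adjusted p = 0.00271) and rho = 0.824 (permutation p = 0.00112, adjusted p = 0.00261). The same relation was present within the groups: with each group's mean taken out, r was 0.891, 0.875 and 0.786 for these members in the order given. Without susceptible pools 1 and 2, which were farthest from the median of Ttr, r was 0.866, 0.875 and 0.693, and with each single pool left out in turn, added after seeing the data, r of miR-34c-5p lay between 0.897 and 0.946.

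The other members had r with Ttr of -0.01 for miR-34a-5p, 0.057 for miR-449a-5p, -0.10 for miR-449c-5p and 0.012 for miR-34c-3p, with permutation p-values from 0.748 to 0.977. Between the members themselves, miR-34c-5p had r = 0.947 with miR-34b-5p and 0.952 with miR-34b-3p over these pools, but 0.041 with miR-34a-5p and -0.03 with miR-449a-5p. miR-449a-5p and miR-449c-5p, neighbours on chromosome 13, had r = 0.537. miR-34a-5p and miR-34b-5p, which share the seed shown above, had r = -0.01.

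**Figure D3:**
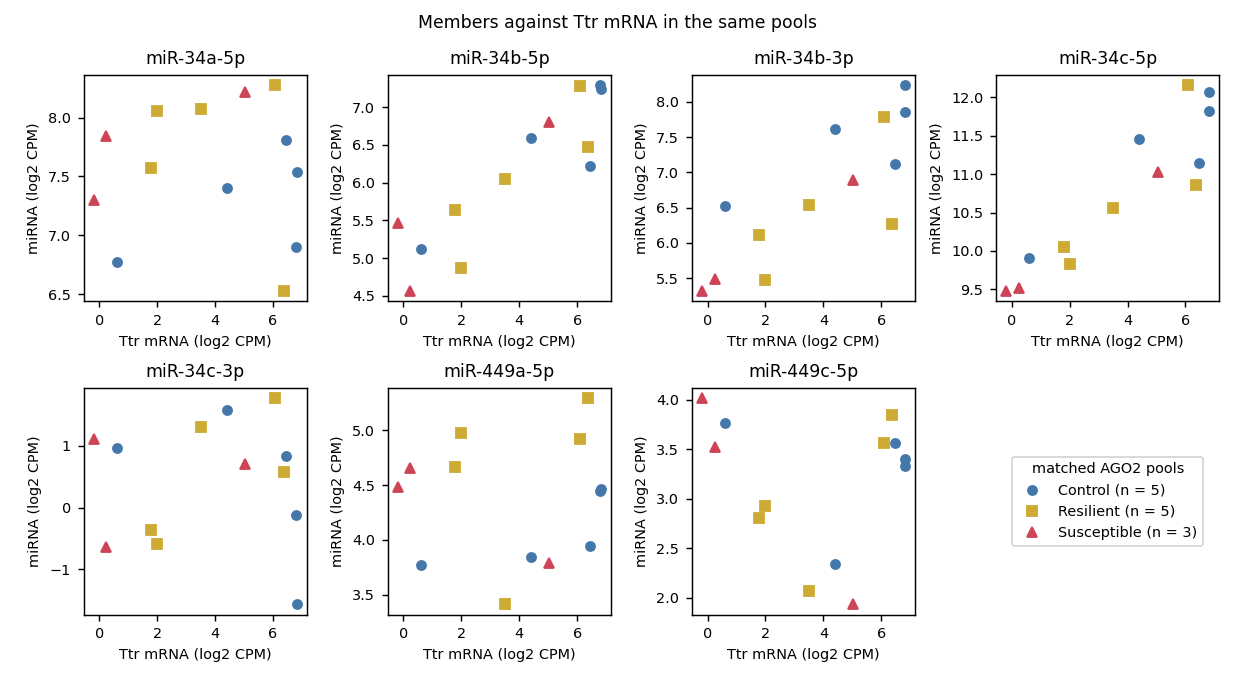
Level of each member (y axis, log2 CPM, a separate scale for each panel) against Ttr mRNA (x axis, log2 CPM) in the 13 matched pools; each point is a pool and its shape and color give the group. miR-34c-5p, miR-34b-5p and miR-34b-3p climb with Ttr (r = 0.915, 0.886 and 0.809), and susceptible pool 4, with a Ttr level of 5.04, sits beside the controls, while miR-34a-5p (r = -0.01) shows no slope.

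Of 20 choroid plexus genes, 18 were measured, and their summed level was 97.4 to 333.8 CPM in control pools (median 263.6), 81.8 to 252.4 in resilient pools (median 127.6) and 89.2 to 149.8 in susceptible pools (median 128.1). Of these genes, 10 were called lower in susceptible pools against controls, beside 18.9% of all 16587 genes called in either direction, and 3 were called lower in resilient pools, beside 17.7% of all genes. The median difference of the list was -1.61 and -0.78 in these comparisons, against -0.01 and -0.02 over all genes. The 10 became 6 when susceptible pool 3, control pool 1 or control pool 4 was left out, and the 3 became 0 when resilient pool 5 or either of these control pools was left out, 1 without resilient pool 2 or 4, 6 without resilient pool 3 and 7 without control pool 5. Calml4 was the only gene of the list with an adjusted p under 0.05 (0.0387 with limma, in susceptible pools), beside 666 of all 16587 genes in that comparison. In single pools up to 7 of the 18 genes had 0 reads. Of the other cell type lists, 3 of 8 genes of BNST neurons were called in susceptible pools, 1 higher and 2 lower. For oligodendrocytes 3 of 6 genes were called, 1 higher and 2 lower, and for erythrocytes 0 of 3. Sst was lower at an adjusted p of 0.0482 and Cnp was called at 0.0209 with limma. The median difference there was -0.40 for the neuron list and -0.09 for the oligodendrocyte list. In resilient pools 1 of 8 neuron genes was called (lower), 2 of 6 oligodendrocyte genes (1 higher, 1 lower) and 1 of 3 erythrocyte genes (lower). The summed level of the oligodendrocyte genes was 3525 to 5256 CPM in controls, 2253 to 4398 in resilient and 2154 to 3591 in susceptible pools, and its part in the members' differences was not tested. In pooled tissue, fewer choroid plexus cells and less of these RNAs per cell cannot be told apart.

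With the Ttr level of the pool added to the limma model, an alternative chosen after seeing the data, the difference of miR-34c-5p between susceptible and control pools was -0.25 (95% confidence interval from -0.80 to 0.30) in place of -1.28. That of miR-34b-5p was 0.20 (from -0.47 to 0.88) in place of -0.88. That of miR-34b-3p was -0.77 (from -1.46 to -0.08, adjusted p = 0.732 with limma) in place of -1.58, and in resilient pools against controls -0.78 (from -1.31 to -0.25, adjusted p = 0.221 with limma) in place of -1.04. The differences of miR-34a-5p were 0.65 and 0.46, close to those without the term. With this term miR-34b-3p was called in both comparisons with controls and miR-34c-5p in neither. Of all 788 miRNAs, 86 were then called in resilient and 50 in susceptible pools.

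The miRNAs most like miR-34c-5p, the most abundant member, were looked up among the 494 miRNAs with a mean level of at least 2 log2 CPM. In order they were miR-375-3p (r = 0.941), miR-204-5p (0.887), miR-1298-5p (0.862), miR-448-3p (0.790), miR-1264-3p (0.709), miR-483-3p (0.703), miR-365-2-5p (0.635) and miR-370-5p (0.624), all over the same 13 pools. miR-204-5p is a miRNA of pigmented and choroid plexus epithelium and had a mean level of 14.2 log2 CPM. miR-375-3p is known from endocrine cells of pancreas and pituitary. It was the only one of the 8 called lower in both comparisons with controls (-0.94 in resilient and -1.42 in susceptible pools, adjusted p = 0.303 and 0.602 with limma). These r values describe 13 pools that share a dissection and, in each pool, a tissue mixture, and carry no test.

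The sequences of the 3 next after miR-375-3p are shown to let their seeds be compared with those of the family, written in the same way.
miR-204-5p: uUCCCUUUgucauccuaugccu
miR-1298-5p: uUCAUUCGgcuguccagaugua
miR-448-3p: uUGCAUAUguaggaugucccau
None of these seeds is that of the family. The hairpin of miR-204 lies at chr19:22750605-22750672 in an intron of Trpm3, those of miR-1298 and miR-448 at chrX:147064905-147065002 and chrX:147158210-147158321 in introns of Htr2c, which encodes the serotonin 2C receptor.

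Among 12624 mRNAs with a mean of at least 2 log2 CPM, those most like miR-34c-5p were Ttr (r = 0.915), Tenm2 (0.906), Dnah6 (0.889), Lhx2 (0.883), Kl (0.882), Anxa2 (0.841), Otx2 (0.835), Slc7a8 (0.833), Fam167a (0.818), Cbln1 (0.810), Fzd8 (0.805) and Dnah12 (0.804). Ttr, Kl, the co-receptor klotho, and Otx2, a homeobox factor, are choroid plexus genes, and Kl was called lower in susceptible pools (-1.46, SE 0.480, adjusted p = 0.0907 with limma). Dnah6 and Dnah12 encode heavy chains of axonemal dynein, the motor of cilia. Of the 12, 10 were called lower in susceptible pools against controls and 2 in resilient pools, but as they were chosen for following a miRNA that was itself called lower, these counts are no separate evidence.

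**Figure D4:**
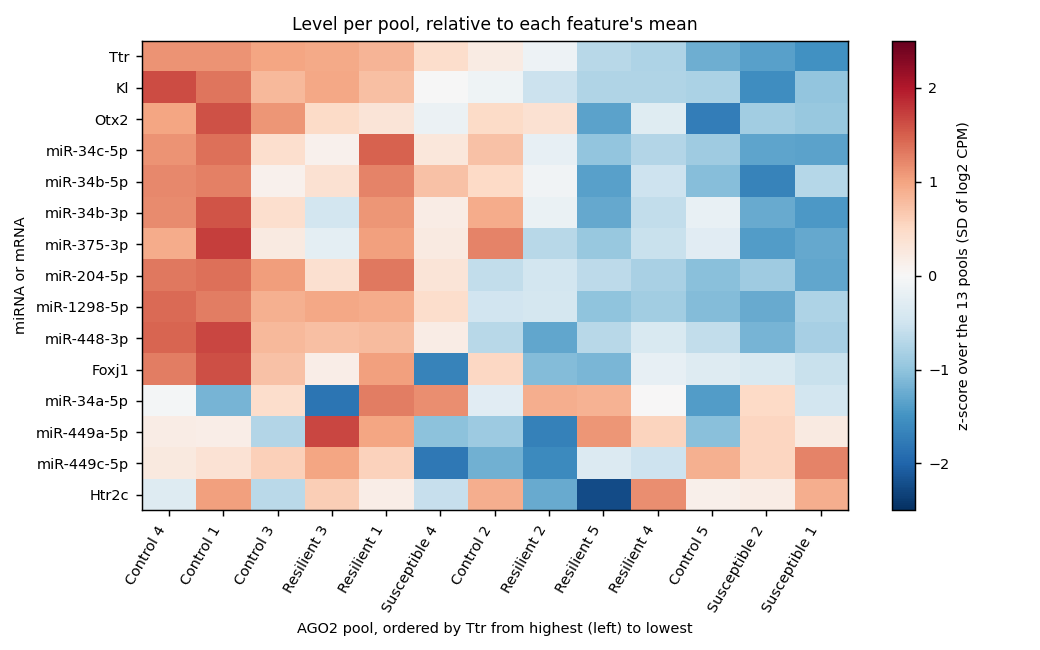
Level of family members and of other miRNAs and mRNAs (rows) in the 13 pools (columns), ordered from the highest Ttr level (6.82, control pool 4) to the lowest (-0.19, susceptible pool 1); color is the z-score over the pools. Rows from Ttr to miR-448-3p pass from red to blue along this order, Foxj1 does so with exceptions, and miR-34a-5p, miR-449a-5p, miR-449c-5p and Htr2c do not.

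Multiciliated cells are a cell type in which miR-34b, miR-34c and miR-449 are known to act, and 18 of 24 genes of their programme were measured. In each comparison with controls 6 of 18 were called, all lower, beside 17.7% of all genes in resilient and 18.9% in susceptible pools. Foxj1, the master regulator of motile cilia, had 3.35 ± 0.417 (SD, n = 5) log2 CPM in controls, 2.78 ± 0.503 (SD, n = 5) in resilient pools and 2.39 ± 0.331 (SD, n = 4) in susceptible pools. All susceptible pools, from 1.99 to 2.71, lay below every control, from 2.74 to 3.82 (difference -0.95, SE 0.269, adjusted p = 0.0546 with limma, exact permutation p = 0.0159, the smallest possible). Foxj1 was named after its values were seen, so these p-values are no separate evidence. How many of all genes did not overlap between these groups was not counted. In resilient pools Foxj1 was called (-0.56, adjusted p = 0.218 with limma), but not without control pool 1, 3 or 4 or resilient pool 2, 4 or 5. The median of the list was -0.67 in resilient and -0.80 in susceptible pools. The 6 of the resilient comparison became 3 without control pool 1. Many of these genes were low, and among those with a mean of at least 2 log2 CPM, 2 of 7 were called in resilient pools and 1 of 7 in susceptible pools, beside 19.8% and 21.8% of all 12639 genes at that level. The r between the mean of this list and miR-34b-3p was 0.888, and it was 0.805 with miR-34c-5p and -0.10 with miR-449a-5p.

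A separate question is whether mRNAs with sites for the seed GGCAGUG changed in AGO2. Sites and targets of AUCACUA, the seed of miR-34b-3p and miR-34c-3p, were not examined. Of 34 genes reported as targets of the GGCAGUG seed, 31 were measured. The matching letters CACTGCC were searched on the sense strand of the longest annotated 3′ untranslated region of each gene, and were found in 24 of the 31, against 17.9% of the 13866 measured genes with such a region. With an A after them, CACTGCCA, which contains the first motif, they were found in 16 of the 31, against 6.17%. The list was made of reported targets, so that these shares describe the choice. Sites of the genes named in the account are shown with the match in capitals, on GRCm38 and on the strand of the gene.
Crhr1, chr11:104175052-104175065, plus strand: ctgtggCACTGCCA
Jag1, chr2:137081670-137081683, minus strand: agagtaCACTGCCt
Notch1, chr2:26459337-26459350, minus strand: cagaaaCACTGCCt
The region of Notch1 held 3 matches and those of Crhr1 and Jag1 held 1 each. In Sirt1, Bcl2 and Ccp110 these letters were not in the region searched, and other kinds of site were not looked for.

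As a list the reported targets did not move in 1 direction. In susceptible pools against controls 3 were called higher and 5 lower, 8 of 31 beside 18.9% of all genes, with a median difference of 0.01. In resilient pools 1 was called higher and 4 lower, 5 of 31 beside 17.7%, with a median of 0.02. The 8 became 5 without susceptible pool 4 and the 5 became 3 without control pool 3. None was called in susceptible against resilient pools, where 2.14% of all genes were called.

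Jag1, a ligand of Notch receptors, had 5.90 ± 0.222 (SD, n = 5) log2 CPM in controls, 5.41 ± 0.293 (SD, n = 5) in resilient pools and 5.23 ± 0.698 (SD, n = 4) in susceptible pools, and was called in both comparisons (-0.49 and -0.67, adjusted p = 0.227 and 0.116 with limma). The resilient call was lost without control pool 1, 3 or 5 or resilient pool 1, 2 or 4 (-0.39 to -0.52), and the susceptible call without susceptible pool 3 (-0.41). Foxp1, a forkhead factor, was called lower in both, with -0.62 in resilient pools (adjusted p = 0.114 with limma) and -0.99 in susceptible pools (SE 0.223, adjusted p = 0.0236 with limma), the latter without overlap with controls. Vamp2, the synaptobrevin of synaptic vesicles, differed by -0.51 in susceptible pools (SE 0.139, adjusted p = 0.0480 with limma), again without overlap. These were the only listed targets with an adjusted p under 0.05, beside 666 of all 16587 genes in susceptible and 324 in resilient pools.

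Sirt1, a deacetylase and classical miR-34a target, was called higher in susceptible pools (0.27, SE 0.109, p = 0.0234, adjusted p = 0.165 with limma, exact permutation p = 0.0159), and its 5.61 to 5.86 log2 CPM there did not overlap with 5.36 to 5.54 in controls. The call was lost without control pool 3 or 4 or susceptible pool 1 or 4 (0.22 to 0.25). Crhr1 had 3.63 ± 0.478 (SD, n = 5) in controls, 4.04 ± 0.455 (SD, n = 5) in resilient and 4.04 ± 0.480 (SD, n = 4) in susceptible pools, and its differences of 0.41 from controls in either group were not called (adjusted p = 0.374 and 0.403 with limma). Bcl2, an inhibitor of cell death, Notch1 and Ccp110, which restrains the growth of cilia, differed by between -0.05 and 0.14 and were not called. AGO2-bound mRNA is not total mRNA, and total mRNA was not analysed here.

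The p53 pathway was followed because p53 induces miR-34a. Of its 20 listed genes, 1 was called higher and 2 lower in resilient pools, and 3 lower in susceptible pools. These are 3 of 20 in either comparison, 15%, a share below the 17.7% and 18.9% of all genes called. The 3 of the resilient comparison became 1 without resilient pool 2. Zmat3, a p53-induced RNA-binding protein, was called lower in both, with -0.41 (SE 0.0860, adjusted p = 0.0270 with limma) in resilient and -0.37 (SE 0.0912, adjusted p = 0.0335 with limma) in susceptible pools, in each case without overlap with controls. An adjusted p under 0.05 was reached by 324 of all 16587 genes in resilient and 666 in susceptible pools. Cdkn1a, the p53-induced inhibitor of the cell cycle, was named after its values were seen and was called lower in both (-0.57 and -0.66, adjusted p = 0.178 and 0.137 with limma). The first call was lost without control pool 4 or resilient pool 2 or 4 (-0.37 to -0.54) and the second without control pool 4 or susceptible pool 3 (-0.45 and -0.57).

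In blood the family was scarce, between 0.00244% and 0.00920% of the miRNA reads of a mouse. Its 3 members stood at similar levels, with means over the 25 mice of 4.08 log2 CPM for miR-34a-5p, 3.62 for miR-449a-5p and 3.41 for miR-34c-5p. This order was not the same in every group, and in B6 controls miR-34c-5p had the highest mean of the 3, 4.51 against 4.35 for miR-34a-5p and 3.72 for miR-449a-5p. Because blood and BNST libraries were made with different kits and scaled separately, no test was made across them.

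miR-34c-5p varied most between mice. It had 2.83, 4.12, 5.91, 5.30 and 4.37 log2 CPM in B6 controls 1 to 5, 4.29, 1.80, 4.43, 1.74 and 3.69 in resilient mice 1 to 5 and 4.02, 3.62, 3.81, 3.51 and 2.80 in susceptible mice 1 to 5. In D2 mice it had 2.75, 4.37, 3.92, 3.32 and 2.47 in controls 1 to 5 and 3.09, 2.94, 2.22, 2.72 and 1.23 in susceptible mice 1 to 5. Of the B6 controls, 2 were above all other mice, and 2 resilient mice, with 27 and 19 reads, were below every other B6 mouse. The groups overlapped in every comparison.

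miR-34c-5p was called lower in B6 resilient mice than in B6 controls (-1.31, SE 0.555, p = 0.0260, adjusted p = 0.919 with limma, exact permutation p = 0.143), 1 of 3 members beside 4.35% of 299 miRNAs. The call was lost without B6 control 3 or 4 or resilient mouse 2 or 4, with differences from -1.12 to -0.95, and when the fit held only these groups. In B6 susceptible mice the difference from controls was -0.95 (p = 0.0982, adjusted p = 0.980 with limma, exact permutation p = 0.143), and in D2 susceptible mice it was -0.93 (p = 0.107, adjusted p = 0.635 with limma, exact permutation p = 0.103). No member was called in either, where 4.01% and 8.7% of all miRNAs were. miR-34c-5p was called in B6 susceptible mice without B6 control 1 (-1.37), and miR-34a-5p in D2 susceptible mice without D2 control 5 (-0.73) or D2 susceptible mouse 1 (-0.66). With the groups of the column names the D2 difference was -0.36. The strain difference in the comparison, the susceptible minus control difference in B6 less that in D2, was -0.03 for miR-34c-5p, with a 95% confidence interval from -1.64 to 1.59, beside 4.35% of all miRNAs called in that contrast. With the groups of the column names it was -0.60 (from -2.29 to 1.09), and was not called.

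The names of the mice start with a prefix, whose meaning is not given in the sources used here, and the differences of miR-34c-5p were not the same within prefixes. Among B6 mice with the prefix EC4, resilient mice had a mean of 2.72 against 5.19 log2 CPM in controls, a difference of -2.47. Among those with the prefix EC3 the means were 3.51 and 3.47, a difference of 0.03. The B6 susceptible mice differed from controls by -1.82 within EC4 and by 0.35 within EC3, and the D2 susceptible mice by -1.74 within ED4 and 0.33 within ED3, and the single mouse of ED6 had 1.23 against a control mean of 3.24, with 1 to 3 mice a group. The difference within ED4 rests on 1 control mouse, and both mice whose labels and column names disagree are of this prefix. With the groups of the column names, an alternative added after seeing the data, it was 0.16 in place of -1.74. With the prefix as a term in the limma model, the difference from controls was -1.28 in B6 resilient mice, which was called (adjusted p = 0.910 with limma). It was -0.95 in B6 susceptible mice and -1.32 in D2 susceptible mice (adjusted p = 0.984 and 0.415 with limma), and neither was called.

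Between the strains, B6 controls had 1.14 more miR-34c-5p than D2 controls (p = 0.0508, adjusted p = 0.197 with limma, exact permutation p = 0.111), which was not called, beside 25.4% of all miRNAs that were. The value lay at the threshold: it was called with the groups of the column names (1.42), and without B6 control 1 or 2, any of resilient mice 1 to 4, D2 control 2 or 3 or D2 susceptible mouse 5 (1.14 to 1.56). Leaving out a resilient or susceptible mouse changes only the shared estimate of the spread, and the difference stays at 1.14. miR-34a-5p and miR-449a-5p were called in no blood comparison. miR-34a-5p had means from 3.69 ± 0.581 (SD, n = 5) in D2 susceptible mice to 4.35 ± 0.440 (SD, n = 5) in B6 controls. miR-449a-5p was the steadiest, with group means from 3.38 to 3.75 log2 CPM and a largest difference of -0.34 between B6 resilient mice and controls (95% confidence interval from -0.77 to 0.09), which was called without B6 control 5 (-0.51). In B6 susceptible against resilient mice, where 3.01% of miRNAs were called, the members differed by between 0.03 and 0.36.

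**Figure D5:**
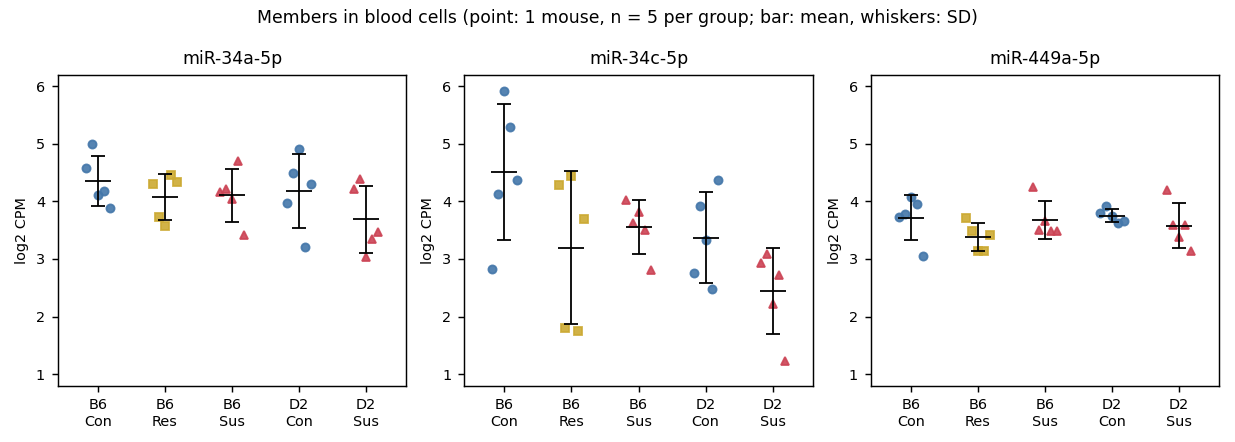
Level of the 3 members in blood cells, in log2 CPM on a common y axis, for 5 groups of 5 mice on the x axis (Con, control; Res, resilient; Sus, susceptible); points are mice, bars are means and whiskers SDs. miR-34c-5p spreads from 1.23 to 5.91, with a B6 control mean of 4.51 and a D2 susceptible mean of 2.44, while miR-449a-5p stays between 3.05 and 4.25.

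The blood miRNAs most like miR-34c-5p over the 25 mice, among 159 with a mean of at least 2 log2 CPM, were miR-135b-5p (r = 0.764), miR-143-3p (0.687), miR-28a-5p (0.583), miR-127-5p (0.581) and miR-411-5p (0.560). None of these was among the 8 of the BNST. miR-143-3p is a miRNA of smooth muscle, and miR-127-5p and miR-411-5p come from the imprinted Dlk1-Dio3 region. These values describe the mice of all 5 groups and carry no test.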

How the data were processed

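The authors trimmed the miRNA reads, aligned them to miRBase v21 and GRCm38 with miRDeep2 and Bowtie, counted them per mature miRNA, kept features with 1 CPM in at least 3 AGO2 or 6 blood samples, and deposited log2 CPM made with voom. Every deposited log2 value gave a whole number of reads within 0.0001 reads, so the adjustment for surrogate variables and cohort in the study's methods is not in these values. AGO2-bound mRNA reads were counted per gene with HTSeq and scaled in the same way. How reads that fit several near-identical members were assigned is not given in the sources used here, so that levels of single members carry this uncertainty.

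Here limma 3.58.1 (R 4.3.3) was fitted to all features and groups of a data set with a variance trend, with Benjamini-Hochberg adjustment over all its features. Permutation tests over libraries were exact and two-sided, and correlations used 100000 permutations. AGO2 miRNA and mRNA pools were matched by group and number. Host genes and untranslated regions are those of GENCODE M21. The fit was tested on simulated data.

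Members, lists and rules were chosen with earlier results of these data known. All members are named, with the 8 miRNAs and 12 mRNAs (5 miRNAs in blood) most like the most abundant member by r, and from the lists Jag1, Sirt1, Bcl2, Crhr1, Ccp110, Notch1 and genes with an adjusted p under 0.05; Foxj1, Cdkn1a and the hosts were added after seeing values. Blood mRNA was not used here. Alternatives were other weights, normalization, filters and pseudocounts, the replicate number as a block, name prefixes, and each library left out. Replicates may be technical in part, and intervals cover the spread of these libraries only. Python 3.11.15 was used for the rest.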

Additional observations from a re-analysis of the deposited data

Results flagged for a closer look

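Of 32 groups of 4 or 5 libraries tested, 2 held a value whose gap to its nearest neighbour passed Dixon's 95% critical value, and about 1 in 20 groups would do so by chance. In AGO2-bound mRNA, Ttr stood at 5.04 log2 CPM in susceptible pool 4, against -0.31 to 0.24 in the other susceptible pools. Of the 3 susceptible pools with a miRNA library, the same pool was also the highest for miR-34c-5p, miR-34b-3p and miR-34b-5p, and for miR-34a-5p, which had 8.22 there against 7.30 and 7.84.

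In blood, miR-449a-5p stood at 4.25 log2 CPM in B6 susceptible mouse 1, against 3.48 to 3.65 in the other 4 mice of the group.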

How the results depend on the processing

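The differences rest on 3 to 5 libraries a group, and miR-449c-5p, miR-34c-3p and all members in blood had few reads. The width of the intervals did not follow the reads alone. In susceptible against control pools the SE was 0.824 for miR-34c-3p, 0.483 for miR-449c-5p and 0.484 for miR-34c-5p. In blood it was 0.555 for miR-34c-5p, 0.310 for miR-34a-5p and 0.209 for miR-449a-5p. Pairing of libraries by replicate number was not seen, but so few pools cannot exclude a shared cohort. The deviations of same-numbered AGO2 miRNA pools correlated between -0.101 and 0.096, and 2 of 13 pools were closest to a pool of their own number. For AGO2 mRNA pools the correlations lay between -0.172 and 0.14, and 3 of 14 were closest to their own number. With the number as a replicate block, 3 members were called in susceptible against resilient pools, beside 31 of all 788 miRNAs. They were miR-34b-5p (-0.85), miR-34b-3p (-0.94) and miR-34c-5p (-1.05). The block also gave miR-449c-5p a difference of 0.12 from controls in susceptible pools and called miR-34b-5p there (-1.29).

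With array weights, miR-449c-5p differed by 0.32 in susceptible pools, and 2 members were called in resilient pools against controls, beside 98 of all 788 miRNAs. In blood these weights called 2 members in B6 resilient mice and 1 each in B6 susceptible mice, D2 susceptible mice and between the strains' controls. Of all 299 miRNAs they called 27, 25, 45 and 90 in these comparisons, in the same order. They gave miR-449a-5p 0.0429 between the strains and -0.0375 in the strain contrast of the CSDS difference. With the Ttr level as a covariate, chosen after seeing the data, 1 member was called in susceptible pools against controls, beside 50 of all 788 miRNAs. The covariate gave miR-34b-5p a difference of 0.20 there, and of 0.29 from resilient pools, where miR-34b-3p and miR-34c-5p differed by 0.0113 and 0.0110. Without a variance trend 1 member was called in susceptible pools, beside 35 of all 788 miRNAs. Between the strains' controls, 1 member was called with voom weights, with a pseudocount of 2 reads and with the groups of the column names. Of all 299 miRNAs, 80, 79 and 85 were called with these settings. voom weights gave miR-34c-5p a strain contrast of 0.00998, and the column names gave miR-34c-5p minus miR-34a-5p a D2 difference of 0.10. With only the compared groups 0 members were called in B6 resilient mice, beside 14 of all 299 miRNAs. The cause of these changes was not tested.

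Leaving out 1 library at a time, the members called ranged from 0 to 2 in resilient and from 1 to 3 in susceptible pools against controls, and from 0 to 2 between the defeated groups. In blood they ranged from 0 to 2 in B6 resilient mice and from 0 to 1 in B6 susceptible mice, in D2 susceptible mice and between the strains. miR-449c-5p ranged from -0.48 to 0.0027 in resilient and from -0.55 to 0.49 in susceptible pools, and miR-34b-5p from -1.04 to 0.077 between the defeated groups. The cluster minus miR-34a-5p ranged from -1.64 to -1.02 in susceptible pools, where the smallest possible p exceeds 0.05. The arm difference of miR-34b ranged from -0.13 to 0.41 between the defeated groups, and from 0.46 to 0.69 between resilient and control pools, a leaving-out that was added after seeing the data. In blood, miR-34c-5p ranged from -0.0018 to 0.67 between susceptible and resilient mice, and miR-34a-5p from -0.12 to 0.20. miR-449a-5p ranged from -0.21 to 0.0439 in B6 susceptible mice. Between the strains' controls miR-34a-5p ranged from -0.0718 to 0.35 and miR-449a-5p from -0.12 to 0.14. The strain contrast ranged from -0.45 to 0.33 for miR-34c-5p and from -0.0386 to 0.28 for miR-449a-5p. miR-34c-5p minus miR-34a-5p ranged from -0.12 to 0.77 between B6 susceptible and resilient mice.

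Among genes with a mean of at least 2 log2 CPM, 4 of 6 choroid plexus genes were called in susceptible and 1 of 6 in resilient pools, beside 21.8% and 19.8% of all genes. The block gave 6 of 18 choroid plexus and 4 of 18 multiciliated genes called between the defeated groups, beside 1.75% of all genes, where none was called without it.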

Other observations

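Htr2c and the miRNAs of its introns did not share an order over the 13 pools. miR-1298-5p had r = 0.943 with Ttr, miR-448-3p 0.843, miR-1264-3p 0.739 and miR-1912-3p 0.651, while the AGO2-bound mRNA of Htr2c, at a mean level of 6.18 log2 CPM, had r = -0.02 with Ttr and 0.135 with miR-34c-5p. Of the opposite arms, miR-1298-3p had r = 0.226 with Ttr, miR-448-5p -0.70 and miR-1264-5p 0.0260, at mean levels of 8.34, 4.21 and 1.45 log2 CPM. That of miR-1912, miR-1912-5p, had r = 0.737 at a mean level of -0.52 log2 CPM. These features were chosen after their values were seen, and the values describe the pools, with no test.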
